A study of Mus musculus with 9 samples.

Results

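Transcripts of 10 genes of the lipid droplet and of intracellular fatty acid binding were followed in epithelial cells from the gut of newborn mice. The genes were listed by name as Plin2, Plin3, Cideb, Cidec, Pnpla2, Lipe, Mgll, G0s2, Fabp1 and Fabp2, and all 10 were measured, out of 18193 genes on the array. Where several probe sets carried the symbol of a gene alone, the one with the highest mean over the 9 arrays stood for it. Control pups carried floxed alleles (Tfr1fl/fl). Knockout pups (Tfr1 IEC-KO) lacked Tfr1, the transferrin receptor that brings iron into cells, in the intestinal epithelium, and the Cre driver is not named in the sources used here. Rescue pups carried that knockout plus one ROSA26 allele with Tfr1 R654A (ROSA26 Tfr1R654A/+), a receptor whose binding of transferrin is strongly weakened. All pups were untreated and taken on postnatal day 0, each genotype had 3 arrays, and cells came off small intestine and proximal colon in EDTA without a sort. Whether an array holds 1 pup or a pool is not stated, so p-values measure the spread between arrays, which may be technical.

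Enterocytes of a suckling animal take up large amounts of milk fat, re-esterify it, and either secrete it in chylomicrons or store it for a time in cytosolic lipid droplets. Perilipins coat the droplet, CIDE proteins help droplets and lipoprotein particles to grow, and a chain of lipases releases the stored fatty acids. Small binding proteins carry fatty acids through the watery cytosol.

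The inhibitor of lipolysis G0s2 was the 1 gene of the 10 whose change passed the test between knockout and control, and it was higher in knockout. It was also the 1 gene that passed between rescue and knockout, where it was lower in rescue. G0s2 is dim, at percentiles 16.4, 24.1 and 15.1 of all genes in control, knockout and rescue. Whether it stands above background was not tested. The other 9 genes did not pass in any of the 3 comparisons. Several of them nevertheless read lower in 2 of the 3 knockout arrays: Plin3, Cideb and Lipe lay 0.56 to 0.91 log2 units under the mean of the controls in knockout replicates 1 and 2 but within 0.08 of it in replicate 3. In replicates 1 and 2 Mgll lay 1.95 and 0.92 above its control mean. The median of the fibroblast markers was 4.01 and 3.22 over control there, against 0.26 in replicate 3. In a fit with the mean of these markers as a covariate, Plin3, Cideb and Lipe changed by 0.02, 0.01 and 0.12, none of them called. Among related genes outside the 10, the droplet enzyme gene Hsd17b13 fell by 2.67 ± 0.19 (log2, standard error) in knockout and was 1.78 ± 0.19 higher in rescue than in knockout.

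Values are log2 values as deposited, and changes are differences of group means with limma's standard error (n = 3 arrays per group). A change was called at an adjusted p under 0.05 in limma's test over all 18193 genes. By that rule 14.1% of all genes were called between knockout and control (5.29% higher, 8.77% lower), against 1 of the 10. Between rescue and knockout the call took 2.31% of all genes (1.23% higher, 1.08% lower), again against 1 of the 10. Between rescue and control limma called 0.126% of all genes and 0 of the 10, and unadjusted p-values under 0.05 were also 0 of the 10. At an unadjusted p under 0.05 the counts were 4 of 10 and 2 of 10 in the comparisons of knockout with control and of rescue with knockout, where 5485 and 3436 of all 18193 genes were under it. Groups that did not overlap were found for 3 of the 10 between knockout and control (32.4% of all genes), for 1 between rescue and knockout (18.1%) and for 1 between rescue and control (16.6%). The median change of the 10 was -0.11, 0.12 and -0.09 in the 3 comparisons, beside -0.04, 0.04 and -0.01 over all genes. Their counts of calls are thus near or under those of all genes for the knockout, and G0s2 is a single gene.

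The arrays differed in ways that touch every comparison below. Of 3 Tfrc probe sets, the brightest read 9.88 to 10.78 in control and 9.07 to 11.16 in knockout, so the deletion could not be read from it. The other two averaged 10.85 and 8.83 in rescue, against 6.15 and 4.67 in control and 5.88 and 4.31 in knockout. Xist read 12.10 to 12.31 in control, 12.02 to 12.75 in knockout and 6.45 to 6.83 in rescue, and the Y-linked Eif2s3y 2.69 to 2.88, 2.34 to 2.82 and 9.36 to 9.70. Sex and rescue therefore cannot be told apart. All 10 of 10 fibroblast markers were higher on average in knockout than in control, 3 of them past the threshold. Over control, the median of this list was 4.01 in knockout replicate 1, 3.22 in replicate 2 and 0.26 in replicate 3, and 0.51 to 1.26 in rescue. The log2 of its summed linear level ran from 10.49 to 11.26 in control, 11.47 to 14.93 in knockout and 11.52 to 12.34 in rescue. The median of 6 smooth muscle markers was 4.32, 3.20 and 0.26 over control in the same order and 0.34 to 1.14 in rescue; 0 of the 6 passed limma's threshold in knockout, and 6 had an unadjusted p under 0.05. The epithelial label was checked against Epcam, at 12.91 to 13.55 over the 9 arrays, and Vil1, at 11.84 to 12.44. The median of 8 enterocyte markers stayed between -0.09 and 0.15 of the control mean on all arrays, and limma called 1 of the 8 lower in knockout. Of the remaining lists, limma called 4 of 7 epithelial, 1 of 6 endothelial, 1 of 7 leukocyte, 1 of 4 neuronal and glial and 0 of 5 pancreatic markers higher in knockout, and 1 leukocyte marker lower. Unadjusted p-values under 0.05 were found for 5, 3, 5, 3 and 0 of them in that order. Pancreatic markers stood apart in single arrays, with a median 2.17 over control in knockout replicate 2 and 1.89 over it in rescue replicate 3, and -0.07 to 0.44 in the other knockout and rescue arrays. What these cells contribute to the values below was not tested beyond the fits named there.

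**Figure D1:**
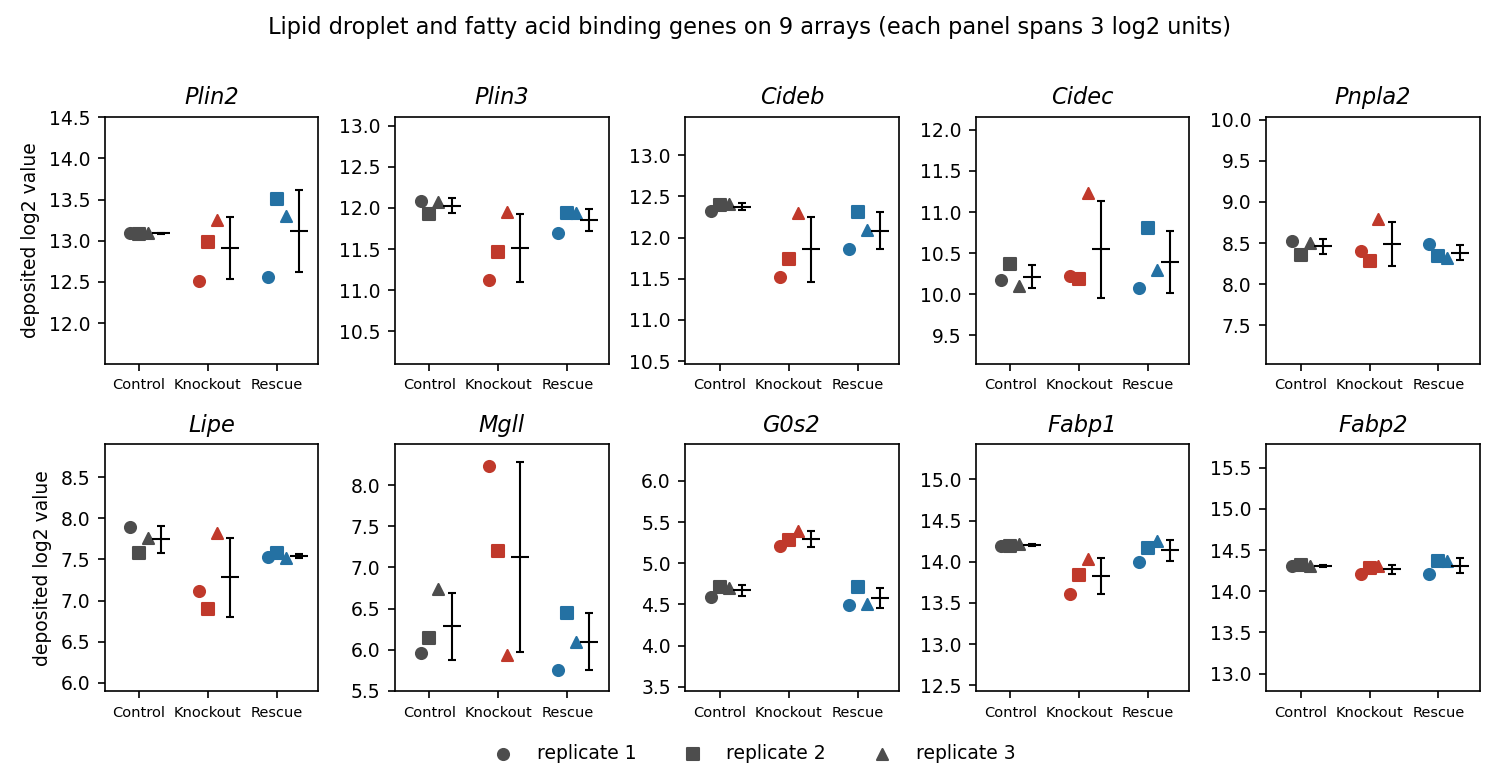
Deposited log2 value (vertical axis, every panel spanning 3 units) of each of the 10 genes on the 3 control, 3 knockout and 3 rescue arrays. Symbols mark the replicate and black bars the group mean and SD. The groups of G0s2 do not overlap between knockout and the others, and knockout replicate 3 (triangle) lies apart from replicates 1 and 2 in Cidec, Lipe and Mgll.

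Of the droplet coat proteins, Plin2 (perilipin 2, the main coat protein of droplets in cells other than fat cells) was spread very differently in the 3 genotypes. It read 13.10, 13.08 and 13.09 on the control arrays, 12.51, 12.99 and 13.25 on the knockout arrays, and 12.56, 13.50 and 13.31 on the rescue arrays. Control arrays agreed within a few hundredths, while the knockout and rescue arrays reached both above and below them, each with its lowest value in replicate 1. Its SD came to 0.011 for control, 0.377 for knockout and 0.499 for rescue. The change was -0.17 ± 0.26 in knockout against control (adjusted p = 0.72), 0.21 ± 0.26 in rescue against knockout (adjusted p = 0.73) and 0.03 ± 0.26 in rescue against control (adjusted p = 1.0). The 95% interval of the knockout change ran from -0.76 to 0.41, so that a fall or a rise of a moderate size was not detectable with these arrays.

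Plin3, which encodes a perilipin that moves between cytosol and new droplets, read 12.09, 11.93 and 12.07 on the control arrays, 11.12, 11.47 and 11.95 on the knockout arrays, and 11.70, 11.94 and 11.94 on the rescue arrays. Knockout replicates 1 and 2 were under every other array, and replicate 3 lay at the level of the lowest control array. Its knockout change of -0.52 ± 0.19 had an unadjusted p of 0.025 and did not pass (adjusted p = 0.11). Rescue lay 0.34 ± 0.19 above knockout (adjusted p = 0.37) and 0.17 ± 0.19 below control (change -0.17, adjusted p = 1.0).

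Cideb, the gene of a CIDE protein of liver and intestine that acts in the loading of lipid onto lipoprotein particles, read 12.33, 12.40 and 12.41 in control. It read 11.53, 11.74 and 12.30 in knockout and 11.86, 12.31 and 12.09 in rescue. Every knockout and every rescue array lay below every control array, the nearest being rescue replicate 2. The knockout change of -0.52 ± 0.20 (adjusted p = 0.11) and the rescue change from control of -0.29 ± 0.20 (adjusted p = 0.99) did not pass. Rescue minus knockout was 0.23 ± 0.20 (adjusted p = 0.59), with overlapping arrays. The only probe set of Cideb has an ID ending that marks possible matches to more than 1 transcript.

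Cidec (also called Fsp27), which promotes fusion of droplets in fat cells, showed the opposite placing of knockout replicate 3. It read 10.17, 10.37 and 10.11 on the control arrays, 10.23, 10.19 and 11.23 on the knockout arrays, and 10.08, 10.80 and 10.29 on the rescue arrays. Knockout replicate 3 was the highest array and rescue replicate 2 the next, while the other knockout arrays read as control. The changes were 0.33 ± 0.29 (knockout minus control, adjusted p = 0.50), -0.16 ± 0.29 (rescue minus knockout, adjusted p = 0.82) and 0.18 ± 0.29 (rescue minus control, adjusted p = 1.0). Knockout replicate 3 alone lay 1.01 above the mean of the controls, and without that array the change was -0.01 (adjusted p = 0.99), so the knockout value of Cidec rests on 1 array.

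**Figure D2:**
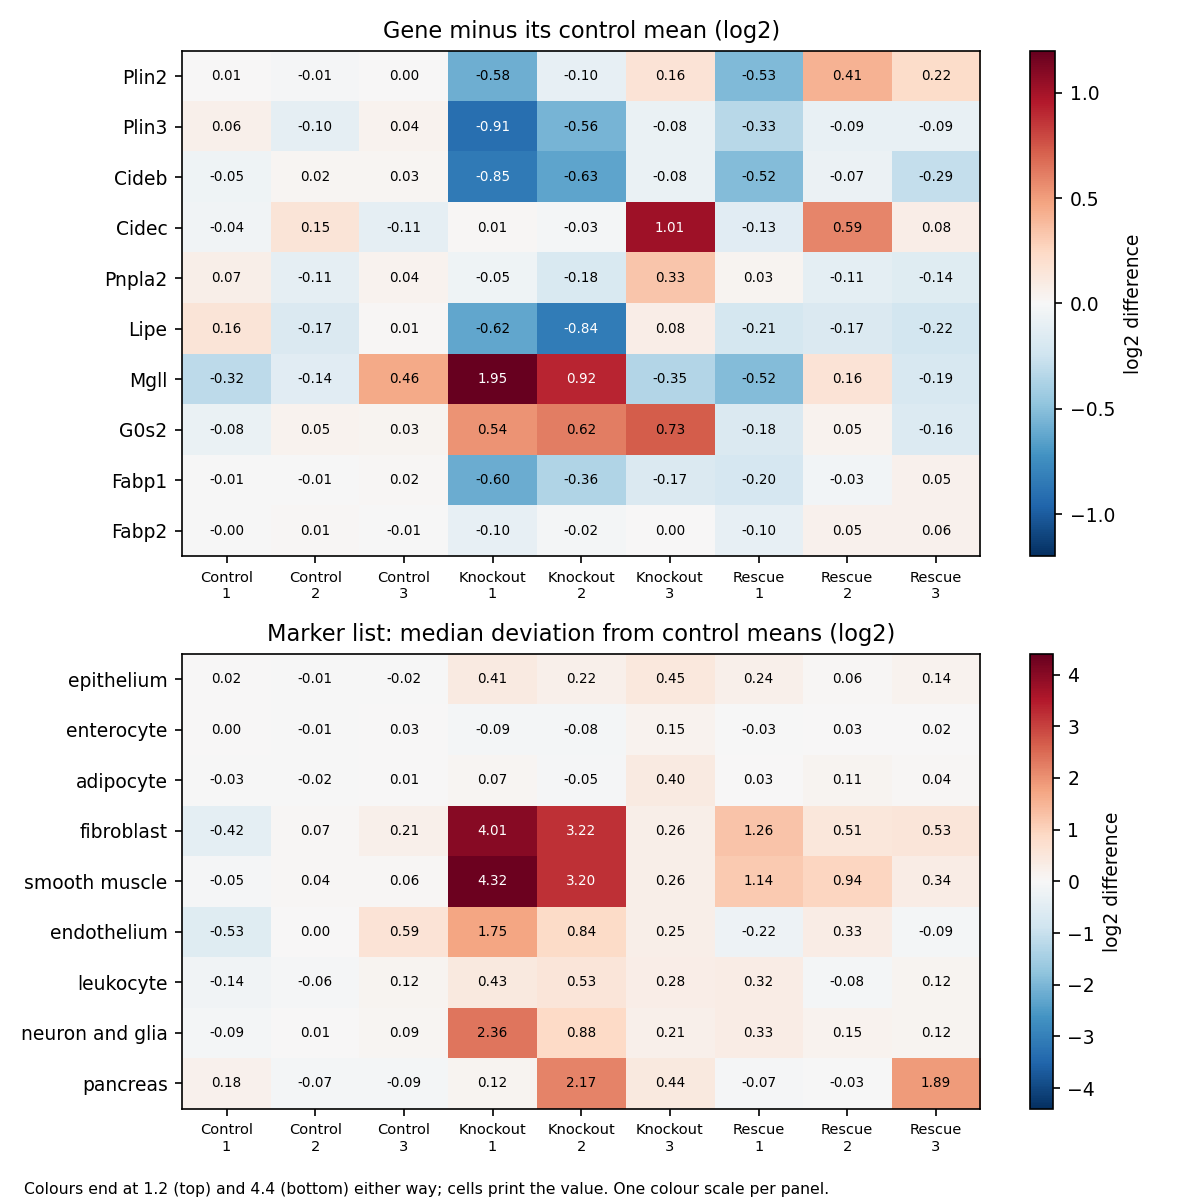
Log2 difference from the control mean on each of the 9 arrays, for the 10 genes (top) and as the median of each cell type marker list (bottom); red is above the control mean and blue below it, with a separate colour scale in each panel. Knockout replicates 1 and 2 hold the lowest values of Plin3, Cideb, Lipe and Fabp1, the highest of Mgll, and fibroblast medians of 4.01 and 3.22, against 0.26 in knockout replicate 3.

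The lipase chain begins with Pnpla2, the gene of adipose triglyceride lipase, which cuts the first fatty acid from a triglyceride. It read 8.53, 8.35 and 8.50 on the control arrays, 8.41, 8.28 and 8.79 on the knockout arrays, and 8.49, 8.35 and 8.32 on the rescue arrays. All 3 groups overlapped, with the highest value again in knockout replicate 3. Its change was 0.03 ± 0.14 in knockout against control (adjusted p = 0.92), with a 95% interval from -0.29 to 0.35. Rescue minus knockout was -0.11 ± 0.14 (adjusted p = 0.74) and rescue minus control -0.07 ± 0.14 (adjusted p = 1.0). A second, dimmer probe set of Pnpla2 read 5.23 to 5.52 over the 9 arrays, and its knockout change was -0.05.

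G0s2 encodes a small protein that binds adipose triglyceride lipase and blocks it. It read 4.59, 4.72 and 4.70 on the control arrays, 5.21, 5.29 and 5.40 on the knockout arrays, and 4.50, 4.72 and 4.51 on the rescue arrays. All 3 knockout arrays, replicate 3 included, lay above all control and rescue arrays, and control and rescue overlapped. G0s2 rose by 0.63 ± 0.10 in knockout (adjusted p = 0.0063) and fell by 0.72 ± 0.10 between knockout and rescue (change -0.72, adjusted p = 0.012). Rescue minus control was -0.10 ± 0.10 (adjusted p = 1.0), with a 95% interval from -0.33 to 0.13. The transcript is dim, at the 16.4th percentile of genes in control and the 24.1st in knockout. Whether it stands above background was not tested. Dim values are flattened by background. Background can therefore make the estimates of 1.54-fold for the rise and 1.65-fold for the fall too small. With regard to the error of the estimate they are not lower bounds. The 95% intervals were 0.40 to 0.86 (log2) for the rise and -0.95 to -0.49 for the fall. The rise was called in 18 of 18 alternative analyses that kept the gene, with adjusted p from 6.7e-04 to 0.033 and changes from 0.54 to 0.74. The fall was called in 16 of 18: it missed without rescue replicate 3, an array with high pancreatic markers (-0.69, adjusted p = 0.056), and in a fit of only the rescue and knockout arrays (adjusted p = 0.096). In a fit that holds the mean of the fibroblast markers as a covariate the rise was 0.74 (adjusted p = 0.016), and knockout replicate 3 alone lay 0.73 above the mean of the controls. These are not separate checks. Replicate 3 is the knockout array with fibroblast markers near control (median 0.26 over it, against 4.01 and 3.22), so the covariate fit leans on it.

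The 2 genes whose values over the 9 arrays lay closest to those of G0s2, after each gene was centred on its own mean, were Ier3, an immediate early gene, and Parp3, an ADP-ribosyltransferase. Their root mean square differences from G0s2 were 0.101 and 0.105 log2 units, where G0s2 itself ranged over 0.90. Ier3 read 7.75 to 8.06 in control, 8.49 to 8.59 in knockout and 7.62 to 8.12 in rescue. Its knockout arrays did not overlap the other groups, which follows from its choice by likeness to G0s2 on the same arrays. Of all genes, 32.4% had no overlap between knockout and control and 18.1% none between rescue and knockout.

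The 250 bases before the annotated start of G0s2 are shown because it is the gene of the 10 that was called, and because they differ in base composition from those of the Fabp genes below. They lie at chr1:193273189-193273438 on the minus strand (RefSeq, GRCm38.p6), hold 67.2% G and C, where the median of all 32841 such windows is 52.4%, and contain none of the 4 motifs searched on both strands. Those motifs were TATAAA, the GATA site AGATAA, the E-box CACGTG, and AGGNCA in 2 copies spaced by 1 base, the kind of repeat that PPAR and related nuclear receptors bind. The sequence is printed 5′ to 3′ on the gene's strand.
G0s2 upstream: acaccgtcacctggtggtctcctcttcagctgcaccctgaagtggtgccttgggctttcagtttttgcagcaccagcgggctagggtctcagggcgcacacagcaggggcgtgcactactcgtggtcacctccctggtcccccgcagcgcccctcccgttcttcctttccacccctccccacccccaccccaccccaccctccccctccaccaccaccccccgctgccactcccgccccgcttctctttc

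Lipe encodes hormone-sensitive lipase, which takes the chain on from diacylglycerol. It read 7.90, 7.57 and 7.76 on the control arrays, 7.12, 6.90 and 7.82 on the knockout arrays, and 7.53, 7.57 and 7.52 on the rescue arrays. Knockout replicates 1 and 2 were the lowest arrays of all and replicate 3 sat among the controls, so the groups overlapped. The change was -0.46 ± 0.21 in knockout (adjusted p = 0.19), 0.26 ± 0.21 in rescue against knockout (adjusted p = 0.57) and -0.20 ± 0.21 in rescue against control (adjusted p = 1.0). A second probe set read only 3.77 to 4.15 and changed by -0.07 in knockout.

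Mgll, the gene of monoacylglycerol lipase, which completes the release of fatty acids, had the widest spread of the 10. It read 5.96, 6.14 and 6.74 on the control arrays, 8.24, 7.20 and 5.93 on the knockout arrays, and 5.76, 6.45 and 6.09 on the rescue arrays. Knockout replicates 1 and 2 were above all other arrays and replicate 3 was below every control array. Its changes were 0.84 ± 0.51 (knockout minus control, adjusted p = 0.31), -1.02 ± 0.51 (rescue minus knockout, adjusted p = 0.31) and -0.19 ± 0.51 (rescue minus control, adjusted p = 1.0). Another 2 probe sets were also highest in knockout replicates 1 and 2, with knockout values of 7.69, 7.02 and 5.95 and of 7.71, 7.08 and 6.11, though replicate 3 lay among the controls there, whereas the fourth read 6.06 to 6.38 on all arrays. The arrays with high Mgll are those with high fibroblast and smooth muscle markers, and in a fit with the mean of the fibroblast markers as a covariate its knockout change was -0.55 (adjusted p = 0.45). In bulk cells, more cells of a type and more RNA per cell cannot be told apart, and the cause was not tested.

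Several of the 10 genes, Lipe, Cidec and Mgll among them, are also transcripts of fat cells, so markers of adipocytes were read beside them. Of 7 such markers 5 were measured, and limma called 0 between knockout and control, where 1 was under 0.05 unadjusted. Adipoq averaged 3.44, 3.46 and 3.58 in control, knockout and rescue, and Lep 4.21, 4.15 and 4.15. Both were among the dimmest genes (under the 12th percentile). Cidea and Retn were brighter. In the same order of groups, Cidea lay at percentiles 25.3, 25.4 and 26.3 of all genes, and Retn at 44.1, 43.1 and 44.8. Fabp4, which endothelium and macrophages express as well, averaged 7.38 in control, 9.55 in knockout and 7.09 in rescue. The summed level of the 5, on the log2 scale, ran from 7.86 to 8.88 in control, 9.09 to 10.46 in knockout and 7.88 to 8.85 in rescue. The sum was carried by Fabp4, which read 10.28 and 9.86 in knockout replicates 1 and 2, where the sums were 10.46 and 10.07. The median of the 5 did not follow it: over control it was 0.07 and -0.05 in those arrays and 0.40 in knockout replicate 3. The part of such cells in the result was not tested, for G0s2 as for the other genes.

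Fabp1, the liver-type fatty acid binding protein that enterocytes also make in large amounts, read 14.20, 14.19 and 14.22 in control. It read 13.60, 13.84 and 14.03 in knockout, and 14.00, 14.17 and 14.25 in rescue. Every knockout array lay below every control array, and rescue reached from just under the highest knockout array to above the controls. The knockout change of -0.38 ± 0.12 had an unadjusted p of 0.015 and did not pass (adjusted p = 0.080). On each control array only 3 genes read above Fabp1, and so close to the top of the scale a change can be compressed. Rescue lay 0.31 ± 0.12 above knockout (adjusted p = 0.22) and differed from control by -0.06 ± 0.12 (adjusted p = 1.0). The second probe set gave changes of -0.28 in knockout and 0.26 from knockout to rescue, also without a call.

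Fabp2, the intestinal fatty acid binding protein, was the flattest of the 10. It read 14.31, 14.32 and 14.30 on the control arrays, 14.21, 14.29 and 14.31 on the knockout arrays, and 14.21, 14.36 and 14.37 on the rescue arrays. All groups overlapped, and the changes were -0.04 ± 0.09 (knockout minus control, adjusted p = 0.81), 0.04 ± 0.09 (rescue minus knockout, adjusted p = 0.84) and 0.00 ± 0.09 (rescue minus control, adjusted p = 1.0). The 95% interval of the knockout change ran from -0.24 to 0.16. The highest value of an array was 14.52 to 14.58, and so close to the top of the scale a change can be compressed.

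The sequences before Fabp1 and Fabp2 are shown because these are the intestine's own binding proteins, and because Fabp1 holds the rarest motif searched. The window of Fabp1 lies at chr6:71199629-71199878 and that of Fabp2 at chr3:122894822-122895071, both on the plus strand (RefSeq, GRCm38.p6), with 42.8% and 35.6% G and C. Fabp1 has TATAAA at 30 to 25 bases before the start, a match that 12.4% of all windows hold. It also has the AGGNCA repeat, on the minus strand at 67 to 55 bases before the start, which 0.338% of all windows hold (111 of 32841). Capitals mark these matches. Fabp2 has none of the 4 motifs, and AGATAA, which 9.99% of windows hold, is in the window of none of the 10 genes. Across the windows of the 10 genes the other matches were CACGTG in Lipe and Mgll (6.02% of all windows) and TATAAA far upstream in Cideb. A match describes letters, and binding was not measured.
Fabp1 upstream: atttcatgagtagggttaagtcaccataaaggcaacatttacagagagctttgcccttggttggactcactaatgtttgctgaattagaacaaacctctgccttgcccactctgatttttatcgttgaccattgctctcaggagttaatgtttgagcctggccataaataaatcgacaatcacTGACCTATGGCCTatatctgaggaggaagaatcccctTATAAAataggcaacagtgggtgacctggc
Fabp2 upstream: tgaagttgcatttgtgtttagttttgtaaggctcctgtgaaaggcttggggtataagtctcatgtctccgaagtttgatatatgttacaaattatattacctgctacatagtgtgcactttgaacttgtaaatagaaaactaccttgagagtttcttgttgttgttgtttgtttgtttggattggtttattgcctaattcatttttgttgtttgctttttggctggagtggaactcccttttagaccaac

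**Figure D3:**
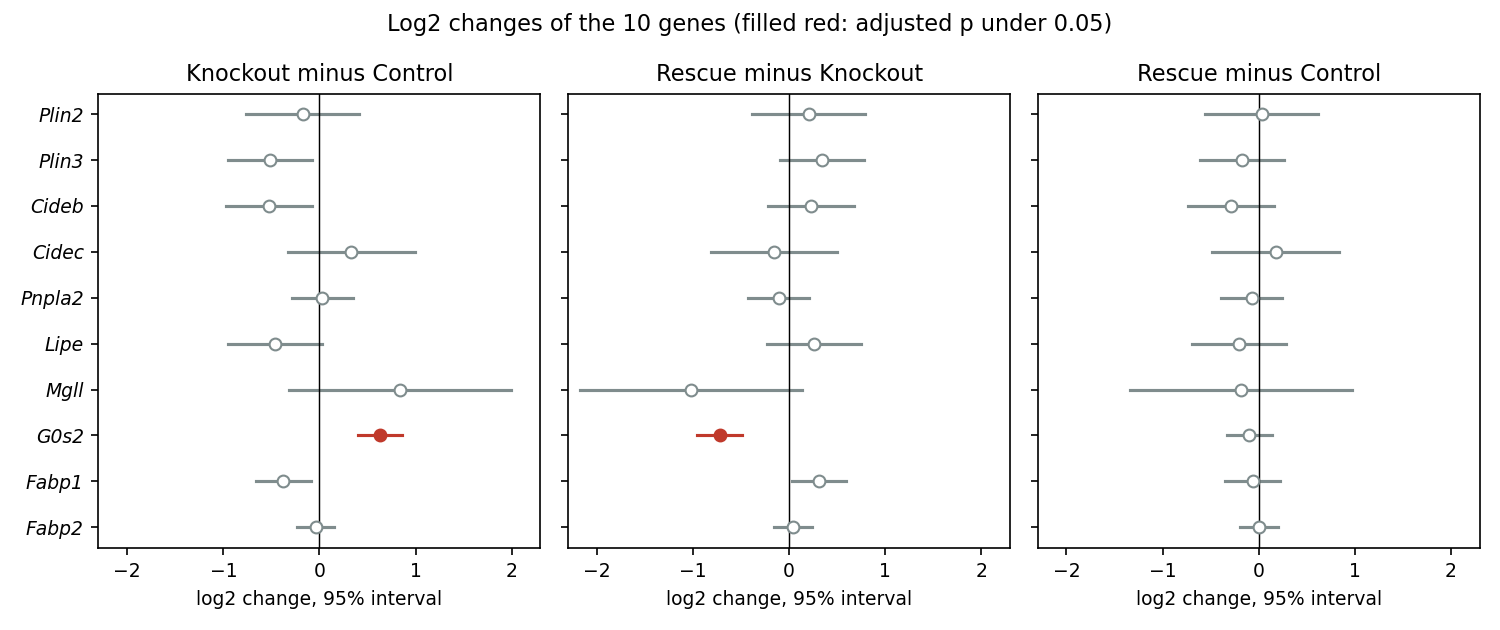
Log2 change (horizontal axis) of each of the 10 genes in the 3 comparisons, with 95% intervals from limma; filled red points passed at an adjusted p under 0.05. G0s2 passed in knockout minus control (0.63) and rescue minus knockout (-0.72), and 0 of the 10 passed in rescue minus control.

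Knockout replicate 3 decided how many of the 10 were called. Without it 6 passed between knockout and control, where 27.5% of all genes did: Plin3 (-0.73), Cideb (-0.74), Lipe (-0.73) and Fabp1 (-0.48) were lower, and G0s2 (0.58) and Mgll (1.43) higher. Between rescue and knockout 5 then passed (15.4% of all genes): Plin3 (0.56), Lipe (0.53) and Fabp1 (0.42) were higher in rescue, and G0s2 (-0.67) and Mgll (-1.62) lower. A fit with replicate 3 as the only knockout array has no spread among knockout arrays, and assumes that this array varies like those of control and rescue. Under that assumption Cidec (1.01) and G0s2 (0.73) passed, as did 14.1% of all genes. Under the fibroblast covariate 2 passed, Cidec at 1.11 (adjusted p = 0.030) and G0s2 at 0.74, where 10.9% of all genes did. There Plin3 changed by 0.02, Cideb by 0.01 and Lipe by 0.12, none of them called. Leaving out rescue replicate 3 removed the call of G0s2 between rescue and knockout, and left 0 of 10 in limma's test, where 0.577% of all genes passed.

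The spread among the arrays of a genotype was wider for these genes in knockout. The median SD of the 10 came to 0.079 for control, 0.388 for knockout and 0.133 for rescue, beside 0.104, 0.225 and 0.140 over all genes. For 7 of the 10 the SD was widest in knockout, and for Plin2, G0s2 and Fabp2 in rescue. G0s2 had SDs of 0.069, 0.095 and 0.124 in the same order.

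The wider pathway was read from 4 lists with 53 genes, of which 47 were measured. Between knockout and control limma called 4 lower and 1 higher, where it called 8.77% and 5.29% of all genes. Between rescue and knockout it called 2 higher and 0 lower, where it called 1.23% and 1.08% of all genes. Between rescue and control limma called 0 of 47, while 5 were under 0.05 unadjusted, as were 1205 of all 18193 genes. The median change of the 47 was -0.01, -0.04 and -0.05 in the 3 comparisons.

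Among 12 genes of droplet coat, fusion and formation, Hsd17b13 was the 1 called. It encodes a droplet-bound dehydrogenase of the liver. It read 11.01, 11.001 and 11.09 on the control arrays, 8.07, 8.34 and 8.67 on the knockout arrays, and 10.15, 9.81 and 10.46 on the rescue arrays. The 3 groups did not overlap, with rescue between the other two. Hsd17b13 fell 6.39-fold in knockout (-2.67 ± 0.19, adjusted p = 3.1e-04) and was 3.44-fold higher in rescue than in knockout (1.78 ± 0.19, adjusted p = 0.0056). Rescue minus control was -0.89 ± 0.19 and was not called (adjusted p = 0.18). The fall was called in 19 of 19 alternatives, with changes from -2.83 to -1.42, the smallest where its bright probe set was averaged with one at 5.11 to 5.77 on all arrays. The rise in rescue was called in 18 of 19, and not in a fit of only rescue and knockout (adjusted p = 0.062). Hilpda, an inhibitor of adipose triglyceride lipase induced by hypoxia, read 6.96, 7.49 and 6.97 on the control arrays and 7.79, 7.97 and 7.84 on the knockout arrays, a change of 0.72 ± 0.21 that did not pass (adjusted p = 0.057), and was chosen for mention after its values were seen. The other perilipins measured, Plin4 and Plin5, averaged 5.50 and 6.62 in knockout and changed by -0.05 and 0.13.

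Of 6 lipolysis genes, 4 averaged higher in knockout than in control, without a call. The largest of these rises was that of Abhd6, at 1.41 ± 0.42 (adjusted p = 0.057), which was named after its values were seen. The 1 called gene, Aadac, an esterase of liver and intestine, fell by 0.95 ± 0.19 in knockout (change -0.95, adjusted p = 0.016). It rose by 0.97 ± 0.19 from knockout to rescue (adjusted p = 0.043). It read 10.97, 11.56 and 11.37 on the control arrays, 10.06, 10.47 and 10.52 on the knockout arrays, and 11.24, 11.15 and 11.58 on the rescue arrays, with no overlap between knockout and the rest. The fall was lost without control replicate 2 (-0.82, adjusted p = 0.063) or 3 (-0.91, adjusted p = 0.068), under the fibroblast covariate (-0.78, adjusted p = 0.12), and with knockout replicate 3 as the only knockout array (-0.77, adjusted p = 0.089). The rise was lost on leaving out any array but knockout replicate 3, at adjusted p of 0.055 to 0.15 and changes of 0.83 to 1.06. It was also lost under the fibroblast covariate (0.85, adjusted p = 0.083), with knockout replicate 3 as the only knockout array (0.80, adjusted p = 0.11), in a fit of only rescue and knockout (adjusted p = 0.14) and after quantile normalization (0.92, adjusted p = 0.052).

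Of 13 genes that make triglycerides and steryl esters, Mogat2, the acyltransferase that starts re-esterification in enterocytes, was the 1 called between knockout and control. It read 11.64, 11.64 and 11.74 on the control arrays, 10.62, 10.83 and 11.35 on the knockout arrays, and 11.39, 11.54 and 11.59 on the rescue arrays. The fall of 0.74 ± 0.17 (change -0.74, adjusted p = 0.026) was lost without any of the 3 control arrays or without knockout replicate 1 or 2 (changes -0.58 to -0.76, adjusted p = 0.063 to 0.096), as it was in a fit of only knockout and control (adjusted p = 0.068). Under the fibroblast covariate it was -0.26 (adjusted p = 0.26), and with knockout replicate 3 as the only knockout array -0.32 (adjusted p = 0.13). Rescue lay 0.57 ± 0.17 above knockout without a call (adjusted p = 0.13). The last step of triglyceride synthesis, carried out by Dgat1 and Dgat2, changed by -0.47 ± 0.16 (adjusted p = 0.090) and -0.35 ± 0.19 (adjusted p = 0.25) in knockout. In the other direction, 5 of the 13 averaged higher in knockout, the most being Acsl4 at 1.28 ± 0.53 (adjusted p = 0.15). Dgat1, Dgat2 and Acsl4 were named after their values were seen.

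Of 16 genes for fatty acid uptake and lipid binding, Fabp6 was higher in knockout and Slc27a4 lower. Fabp6, the bile acid binding protein of the ileum, read 8.75, 7.33 and 7.21 on the control arrays, 11.92, 11.07 and 11.49 on the knockout arrays, and 12.53, 9.79 and 11.79 on the rescue arrays. It rose 13.3-fold in knockout (3.73 ± 0.68, adjusted p = 0.0098). Rescue was 3.61 ± 0.68 over control without a call (unadjusted p = 5.6e-04, adjusted p = 0.13), with every rescue array above every control array. Between rescue and knockout the change was -0.12 ± 0.68 (adjusted p = 0.95), and the arrays overlapped. The rise was called without any 1 array, and missed under the fibroblast covariate (3.62, adjusted p = 0.063) and with knockout replicate 3 as the only knockout array (3.73, adjusted p = 0.057). Slc27a4, the fatty acid transport protein FATP4, fell by 0.91 ± 0.25 (change -0.91, adjusted p = 0.043). It read 11.40, 11.06 and 11.30 on the control arrays and 9.95, 10.13 and 10.93 on the knockout arrays, and its call was lost on leaving out any array but knockout replicate 3 (changes -0.72 to -1.01, adjusted p = 0.055 to 0.14). Under the fibroblast covariate it was -0.19 (adjusted p = 0.51), with knockout replicate 3 as the only knockout array -0.32 (adjusted p = 0.34), and a fit of only knockout and control gave an adjusted p of 0.088. Of the other binding proteins of the same family, Fabp4, Fabp5 and Fabp7 read 2.16, 1.13 and 1.79 higher in knockout, with adjusted p of 0.080, 0.13 and 0.067, and each was highest in knockout replicates 1 and 2, the arrays with high fibroblast markers; these 3 were named after their values were seen.

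**Figure D4:**
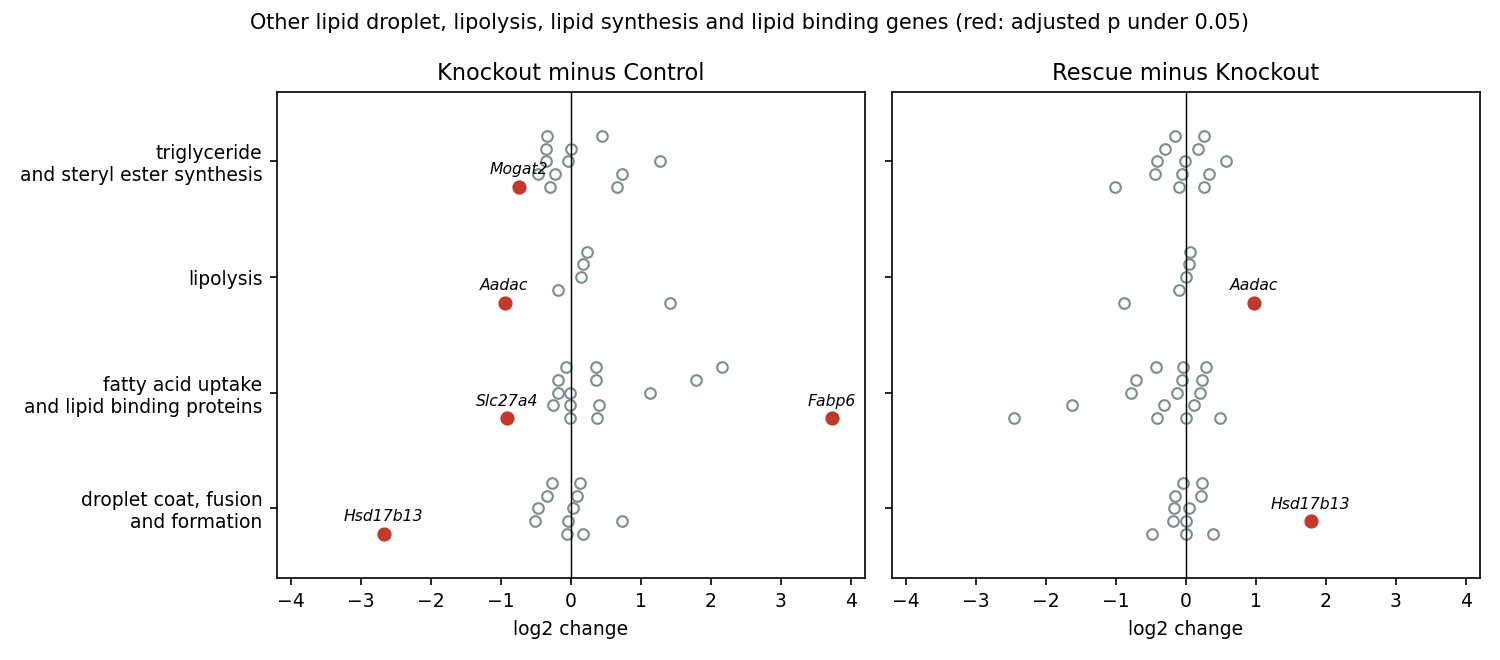
Log2 change (horizontal axis) of the 47 measured genes of the 4 pathway lists, 1 point per gene, in knockout minus control (left) and rescue minus knockout (right); red points with names passed at an adjusted p under 0.05. Hsd17b13 lies at -2.67 on the left and 1.78 on the right, and Fabp6 at 3.73 on the left.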

How the data were processed

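RNA of 9 samples, 3 per genotype, was measured on Affymetrix mouse arrays. The deposited log2 values are RMA values, 1 per probe set, made by the authors with RMA and Partek 6.5, per the submitters' processing notes; their settings and any filter were not stated. They were used as deposited, without a filter. Array medians lay between 5.93 and 6.00, and 0 of 36 pairs of arrays were identical. Of 45101 probe sets, 34958 carried 1 symbol of the platform annotation, which can be old, 932 several and 9211 none; 34945 were used.

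limma 3.58.1 in R 4.3.3 fitted the means of the 3 groups over all 9 arrays. Tests were two-sided and adjusted over all 18193 genes by Benjamini and Hochberg. The number of arrays limits precision, and the median gene had a standard error of 0.147 for a log2 change. On simulated data for knockout against control, 7, 35, 40 and 45 of 50 genes raised by 0.5, 1, 1.5 and 2 were found, with 3 false calls among the unchanged genes. The simulation gave each gene independent noise with the same SD in all groups. In the data the median SD over all genes was 0.225 in knockout and 0.104 in control, so these counts may not carry over. Folds whose lower group mean fell in the dimmest 40% of genes are lower bounds with regard to background, and not with regard to the error of the estimate.

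The members, the lists and the tests were chosen with earlier results of these data known. Named were the 10 members, up to 5 called genes per list and comparison, and the 2 genes nearest to a called member. Listed genes without a probe set of their own symbol were not analysed here. Same-numbered arrays share a number and no stated source.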

Additional observations from a re-analysis of the deposited data

How the results depend on the processing

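Alternatives were planned for probe sets, scaling, dim genes, the fit, covariates and left-out arrays. The direction of G0s2 held in every one that kept it, in all 3 comparisons. The changes that turned were not called before or after turning, and the cause was not tested. With the fibroblast covariate, knockout minus control became 0.0065 for Cideb, 0.031 for Fabp2, 0.12 for Lipe, -0.55 for Mgll, 0.34 for Plin2 and 0.019 for Plin3. Rescue minus knockout became -0.14 for Cideb, -0.0074 for Fabp2, -0.15 for Lipe, -0.15 for Plin2, -0.0307 for Plin3 and -0.010 for Slc27a4, and rescue minus control 0.017 for Fabp1 and 0.015 for Pnpla2. In that fit 2 members passed in knockout (10.9% of all genes), and 4 pathway genes in rescue against knockout (5.41%). With knockout replicate 3 alone, where the spread comes only from control and rescue, knockout minus control became 0.0026 for Fabp2, 0.080 for Lipe, -0.35 for Mgll and 0.16 for Plin2. Rescue minus knockout became -0.21 for Cideb, -0.000333 for Fabp2, -0.28 for Lipe, 0.17 for Mgll, -0.13 for Plin2, -0.089 for Plin3 and -0.10 for Slc27a4. Array weights called 5 members and 16 pathway genes in knockout (35.2% of all genes), and 2 and 8 in rescue against knockout (13.5%). In rescue against control they called 3 pathway genes (1.95%). Knockout replicates 1, 2 and 3 had weights of 0.43, 2.14 and 0.17, the last being the lowest of the 9 arrays. Replicate 3 therefore counted for little in this fit. Array weights turned Aadac (rescue minus control, -0.033), Cidec (rescue minus knockout, 0.19) and Pnpla2 (knockout minus control, -0.15, and rescue minus knockout, 0.057). Pnpla2 in knockout also turned on centring (-0.051) and on averaging probe sets (-0.0074), and Fabp2 in rescue minus control on centring (-0.021) and quantile normalization (-0.011). Without the dimmest genes, G0s2 was not tested and 0 members passed limma's test in either comparison with knockout. Of the genes kept, 22% passed between knockout and control and 3.75% between rescue and knockout. Fitting only rescue and knockout left 0 members and 0 pathway genes (0.165% of all genes), and quantile normalization left 1 pathway gene there (2.19%). Averaging probe sets gave 1 pathway gene in rescue minus control (0.137%).

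Leaving out 1 array at a time gave 1 to 6 members and 2 to 12 pathway genes in knockout, where 5.14% to 27.5% of all genes passed. In rescue against knockout it gave 0 to 5 members and 1 to 9 pathway genes, where 0.577% to 15.4% of all genes passed. Each highest count came without knockout replicate 3. Rescue minus control ran from -0.14 to 0.15 for Aadac, -0.029 to 0.33 for Cidec, -0.12 to 0.0083 for Fabp1, -0.024 to 0.054 for Fabp2, -0.36 to 0.043 for Mgll and -0.16 to 0.31 for Plin2. Knockout minus control ran from -0.0065 to 0.51 for Cidec, -0.34 to 0.030 for Plin2 and -0.12 to 0.14 for Pnpla2. Rescue minus knockout ran from -0.36 to 0.18 for Cidec, -0.70 to 0.67 for Fabp6 and -0.21 to 0.043 for Pnpla2. Centring moved the median change of all genes to -0.12 in knockout, with 897 higher and 1954 lower, against 963 and 1596.

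With the replicate number as a block, 1 member was called in knockout and 1 in rescue against knockout, G0s2 in both (adjusted p = 0.013 and 0.030), and 257 genes in place of 420 between rescue and knockout and 12 in place of 23 between rescue and control. Correlations of same-numbered deviations ran from -0.22 to 0.40, so the numbers were not taken to pair the arrays.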
